A study of Mus musculus with 12 samples.

Results

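Amino acid carriers are the membrane proteins that move amino acids into cells, out of them and across their organelles. The genes described here were taken from the deposited table by their symbols: every gene of the carrier families Slc1, Slc3, Slc6, Slc7, Slc36, Slc38 and Slc43, together with Cdo1, the gene of cysteine dioxygenase. That rule found 61 of the 39032 genes in the table, namely 56 carriers, 4 genes named for the opposite strand of a carrier (Slc7a6os, Slc36a1os, Slc36a3os and Slc6a19os) and Cdo1. The rule itself reads only symbols, but the members were chosen with earlier results of these data known.

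The values come from poly(A) RNA sequencing of MC3T3-E1 subclone 14, a clonal line of mouse pre-osteoblasts, which are cells that lay down and mineralize bone matrix when ascorbate and phosphate are supplied. All 12 libraries were made from wild-type cells kept for 5 days in osteogenic medium with ascorbic acid phosphate at 50 µg/mL, β-glycerophosphate at 5 mM, 10% fetal bovine serum and 1% antibiotic, and RNA had an integrity number of at least 7.0. The BMP2+RSPO2 arm received bone morphogenetic protein 2 (BMP2) at 100 ng/ml together with R-spondin 2 (RSPO2) at 200 ng/ml. The BMP2 arm received BMP2 at 100 ng/ml, the RSPO2 arm received RSPO2 at 200 ng/ml, and the Control arm received vehicle. Each arm had 3 replicates, which the labels describe as biologically independent. The line is 1 clone, so the spread between replicates is that between cultures of the same cells. The series asks which transcripts BMP2 and RSPO2 regulate alone and in combination.

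As background, a differentiating osteoblast secretes large amounts of type I collagen, a protein rich in glycine and proline, and draws on carriers for these residues and for glutamine. Carriers work by a few mechanisms. Some are driven by sodium or protons, and others exchange an amino acid inside for one outside, often as a light chain bound to the heavy chain 4F2hc, which Slc3a2 encodes. Many carrier genes are known targets of ATF4, a transcription factor that rises when amino acids run short or when the endoplasmic reticulum is stressed. BMP2 acts through SMAD transcription factors, and R-spondins strengthen Wnt signalling by keeping Wnt receptors on the cell surface.

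Of the 61 genes, 16 were listed at 0 FPKM in all 12 libraries, and 22 were above 0 somewhere but did not reach 1 FPKM in 3 libraries. FPKM, the fragments mapped to a transcript scaled to its length and to all mapped fragments, is a level per length, so levels of different genes can be set side by side. The remaining 23 genes reached 1 FPKM in at least 3 libraries and were tested: 21 carriers, Cdo1 and Slc7a6os. By family, 3 of 7 Slc1 carriers were tested, 1 of 2 in Slc3, 3 of 17 in Slc6, 6 of 14 in Slc7, 2 of 3 in Slc36, 5 of 10 in Slc38 and 1 of 3 in Slc43. Carriers at 0 throughout included Slc1a1, a glutamate carrier, Slc6a3, the dopamine carrier, Slc6a5, the glycine carrier of glycinergic neurons, and Slc7a9, the light chain of the kidney's cystine carrier. Slc38a1, a glutamine carrier of many tissues, was listed at no more than 0.01 FPKM. Just inside the filter stood Slc6a4, with 4 libraries at 1 FPKM or more, and Slc38a9, with 7. Just outside stood Slc43a2, with 2 such libraries, followed by Slc43a1, which peaked at 0.82 FPKM, and Slc38a4, which peaked at 0.65 FPKM. Because a gene that is high in a single arm can enter through that arm, the 23 tested genes are not all members, and their counts below are read against those of all 11548 genes tested in the table.

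Averaged over the 12 libraries, Slc3a2 stood at the top with 70.7 FPKM, followed by Slc38a2 at 64.4, Slc38a10 at 43.4, Slc7a5 at 36.5 and Slc7a6 at 23.7 FPKM. Slc36a2 came next at 22.8 FPKM, but this mean joined arms that lay far apart. Summed over all 56 carriers, FPKM was 436 ± 52.2 in BMP2+RSPO2, 340 ± 21.9 in BMP2, 372 ± 58.0 in RSPO2 and 353 ± 50.2 in Control (mean ± SD of the 3 replicates, as for all means given below). The Slc36 family alone summed to 61.8 ± 14.5 FPKM in BMP2+RSPO2 and 35.7 ± 3.81 in BMP2, against 6.21 ± 0.488 in RSPO2 and 8.92 ± 1.32 in Control. Slc36a2 made up 9.64%, 14.7% and 13.5% of the summed carrier FPKM in the BMP2+RSPO2 libraries and 9.42%, 8.55% and 8.54% in the BMP2 libraries. It made up 0.257%, 0.288% and 0.713% in the RSPO2 libraries and 0.634%, 0.943% and 1.50% in the Control libraries. Its rank by mean level among the carriers was 3 in BMP2+RSPO2 and 4 in BMP2, against 19 in RSPO2 and 17 in Control.

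**Figure D1:**
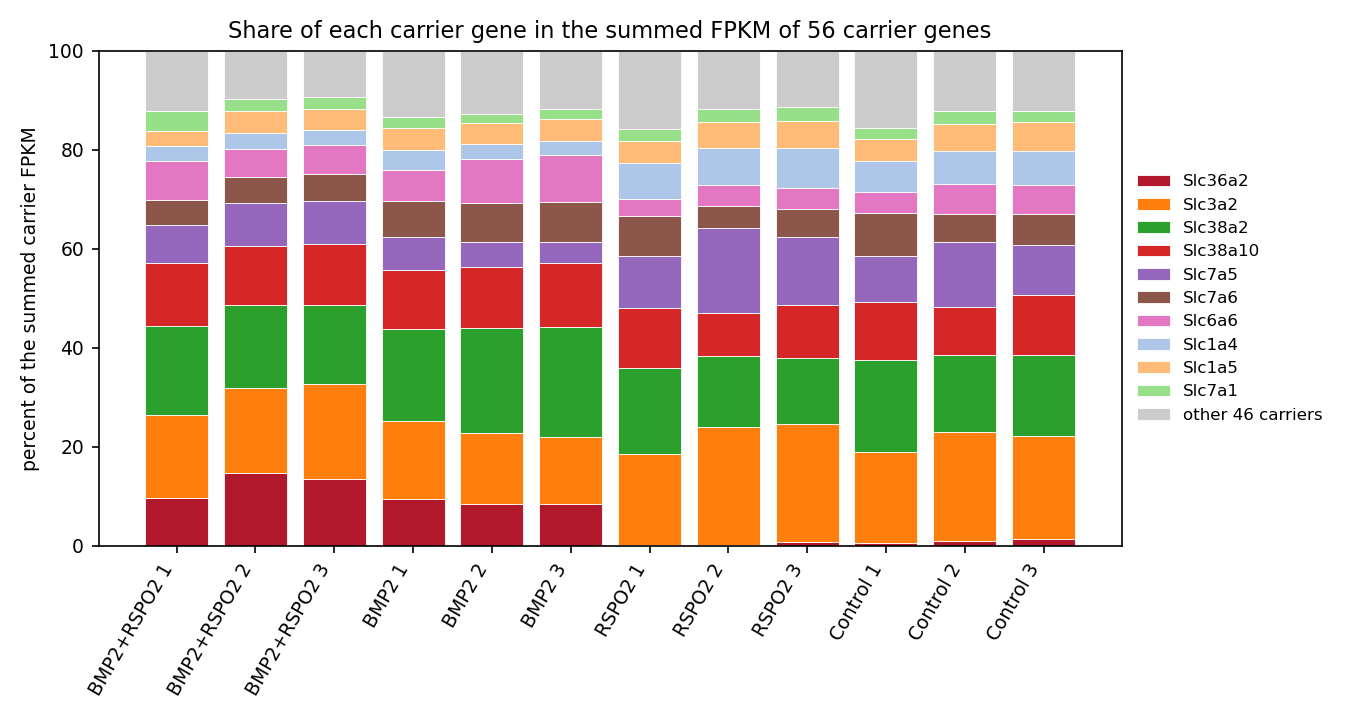
Share of the 10 most abundant carrier genes in the summed FPKM of all 56 carriers (y axis, percent), with 1 stacked bar per library and the other 46 carriers in grey. The Slc36a2 segment at the foot of the bar spans 8.54% to 14.7% in the 6 libraries with BMP2 and 0.257% to 1.50% in the 6 without it.

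The cells carried the markers of their label. Of 9 osteoblast markers, 8 were in the table and none was at 0 throughout, and their summed FPKM was 16442 to 30478 in BMP2+RSPO2, 13839 to 22714 in BMP2, 6724 to 10446 in RSPO2 and 7279 to 12173 in Control. Replicate 1 of BMP2+RSPO2 stood apart, with a total FPKM of 635139 against 322074 to 380507 in the other 11 libraries, and with 19.1% of its FPKM in RNA polymerase III transcripts against 0.180% to 2.30% elsewhere. The first replicates of all arms also had the highest sums of 6 proliferation markers, 166 FPKM in BMP2+RSPO2, 267 in BMP2, 310 in RSPO2 and 314 in Control, against 44.1 to 119 FPKM in the other 8 libraries. Results below are therefore also given for replicates 2 and 3 alone where that changed a call. No counts were given, and the depth of the libraries is thus not known.

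Slc36a2 and Cdo1 rose with BMP2, alone or with RSPO2, by more than any other tested member against Control, and no member passed the test with RSPO2 alone. All changes are on the log2(FPKM + 1) scale, which understates the change of genes at low levels, and a gene was called where its Benjamini-Hochberg adjusted p over all 11548 genes was under 0.05 in limma. In BMP2+RSPO2 against Control, 6 of the 23 tested members were called: Slc36a2, Cdo1, Slc6a4 and Slc38a10 were higher and Slc1a4 and Slc7a2 lower. The background in that comparison was 23% of all genes tested, with 3.65% called higher and 19.4% called lower. In BMP2 against Control, 3 members were called, Slc36a2 and Cdo1 higher and Slc1a4 lower, beside a background of 1.52%, with 0.511% higher and 1% lower. In RSPO2 against Control, limma called 0 members beside a background of 0.0779%, with 0.0606% higher and 0.0173% lower, and 1 of the 21 carriers, Slc36a2, had an unadjusted p under 0.05.

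Adding RSPO2 to BMP2, the comparison of BMP2+RSPO2 with BMP2, gave 2 called members, Slc6a4 and Slc7a1, both higher, beside a background of 4.38%, with 0.641% higher and 3.74% lower. Adding BMP2 to RSPO2, the comparison of BMP2+RSPO2 with RSPO2, gave 8 called members beside a background of 26.1%, with 4.32% higher and 21.8% lower. Slc36a2, Cdo1, Slc6a4, Slc6a6, Slc38a10 and Slc38a2 were the 6 higher ones and Slc1a4 and Slc7a2 the 2 lower ones. The interaction, the log2 effect of RSPO2 with BMP2 minus that without BMP2, gave 0 called members in limma beside a background of 0.294%, with 0.00866% higher and 0.286% lower. There, 3 of the 21 carriers had an unadjusted p under 0.05: Slc36a2, Slc6a4 and Slc38a10. Counted without a test, 6 of the 21 carriers were higher and 3 lower in BMP2+RSPO2 than in Control with no overlap between the groups, beside backgrounds of 6.68% and 37.3%. The same count was 8 higher and 4 lower against BMP2, beside 4.97% and 28.6%, and 6 higher and 2 lower against RSPO2, beside 6.22% and 36.1%. In BMP2 against Control it was 2 higher and 2 lower, beside 6.23% and 14.6%, and in RSPO2 against Control 1 higher and 0 lower, beside 5.81% and 3.52%. Several of these comparisons share an arm and are not independent of each other.

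In the comparisons of BMP2+RSPO2 most genes of the table had negative log2 changes. The median log2 change against Control was 0.04 over the 21 carriers and -0.26 over all genes tested, and it was positive for 11 of the 21 carriers against 26.5% of all genes. Against BMP2, the median was 0.13 over the carriers and -0.19 over all genes, with 14 of 21 positive against 28.7% of all genes. Over all genes, the calls of BMP2+RSPO2 against Control divided into 421 higher and 2235 lower as deposited. After median-of-ratios scaling of the libraries they divided into 764 higher and 874 lower. For BMP2+RSPO2 against BMP2 the division was 74 higher and 432 lower as deposited and 129 higher and 129 lower after that scaling, and for BMP2+RSPO2 against RSPO2 it was 499 and 2516 as deposited and 838 and 959 after it. Median-of-ratios scaling moved the median of all genes in BMP2+RSPO2 against Control to -0.04, and the members for which a scaling changed a call are named below. In bulk RNA, fewer cells that express a gene and less of its RNA per cell cannot be told apart.

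**Figure D2:**
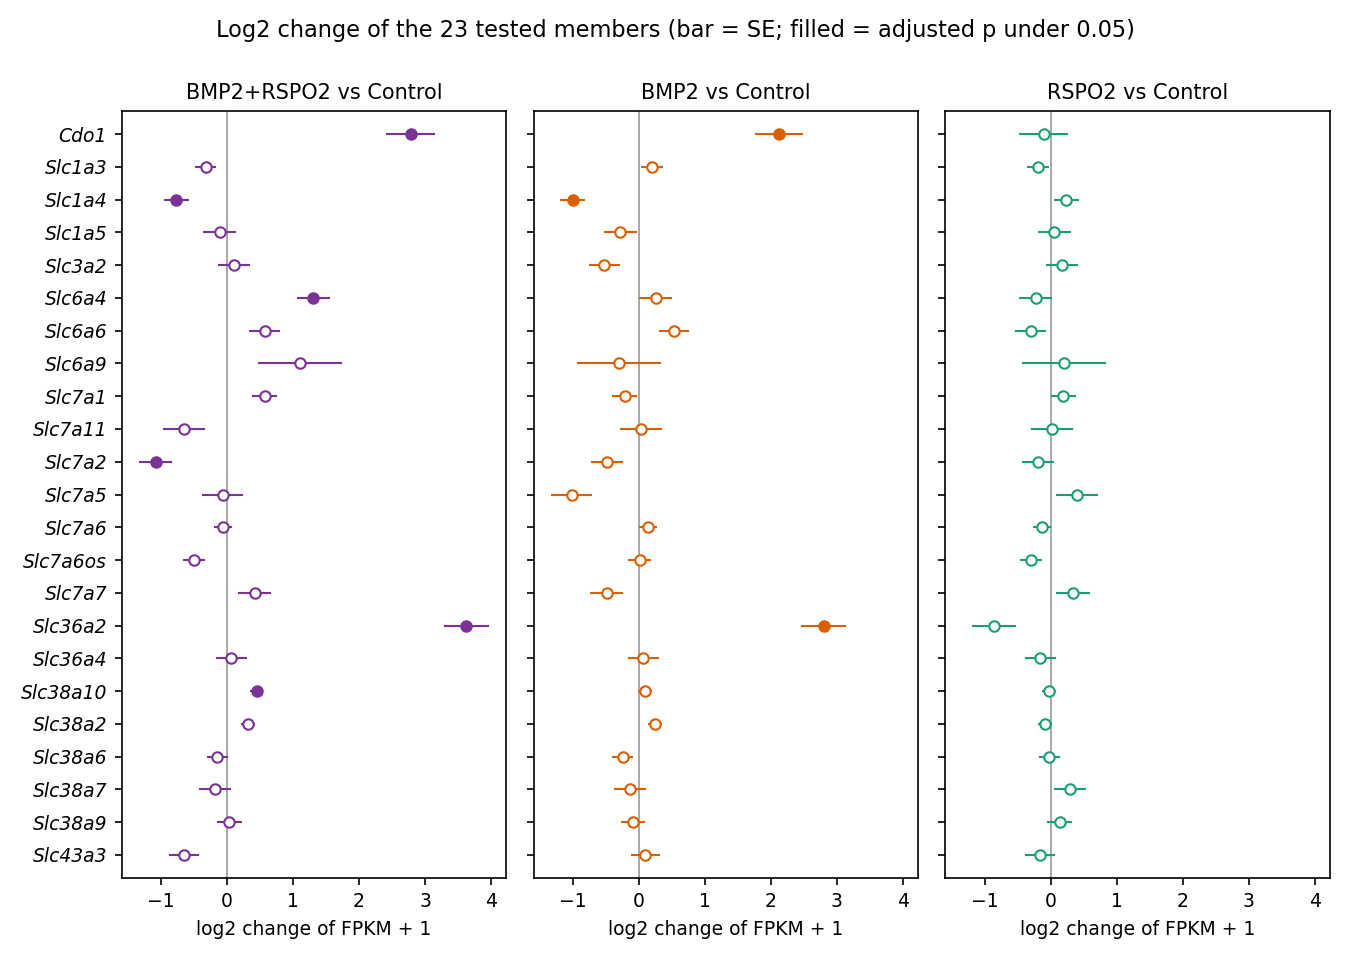
Log2 change of FPKM + 1 (x axis) for the 23 tested members (y axis) in BMP2+RSPO2, BMP2 and RSPO2, each against Control, from the limma fit of all 12 libraries. Bars are SE and filled points have an adjusted p under 0.05; Slc36a2 and Cdo1 lie far right in the panels with BMP2, and no point is filled in the RSPO2 panel.

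Slc36a2 encodes a proton-coupled carrier of glycine, proline and alanine, best known from kidney and from brown fat. Its level was 36.3, 69.0 and 62.4 FPKM in the BMP2+RSPO2 libraries, 34.4, 28.2 and 27.8 FPKM in BMP2, 0.800, 1.23 and 2.69 FPKM in RSPO2, and 1.95, 3.84 and 5.18 FPKM in Control. Every library with BMP2 was far above every library without it, and the 3 BMP2+RSPO2 libraries were above the 3 BMP2 libraries. Against Control, Slc36a2 rose by 3.62 ± 0.34 in BMP2+RSPO2 (log2, SE, adjusted p = 0.000114) and by 2.80 ± 0.34 in BMP2 (adjusted p = 0.00247). The ratio of mean FPKM was 15.3 for BMP2+RSPO2 over Control and 8.24 for BMP2 over Control.

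With RSPO2 alone, Slc36a2 averaged 1.57 ± 0.991 FPKM, against 3.66 ± 1.62 FPKM in Control, and the groups overlapped (log2 change -0.86 ± 0.34, adjusted p = 1.00). Against RSPO2 alone, it rose by 4.48 ± 0.34 in BMP2+RSPO2 (adjusted p = 1.79e-05), a ratio of mean FPKM of 35.5. Against BMP2 alone, the log2 change in BMP2+RSPO2 was 0.83 ± 0.34 and did not pass (adjusted p = 0.159), although the groups did not overlap. In replicates 2 and 3 alone, that change was 1.20 (adjusted p = 0.0155) and the interaction was 2.13 (adjusted p = 0.0150), whereas the interaction over all 12 libraries was 1.68 ± 0.48 (adjusted p = 0.185). In replicates 2 and 3 alone the backgrounds were also larger, 22.5% of genes called against BMP2 and 9.89% in the interaction.

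Slc36a2 and Cdo1 are also active in fat cells, so adipocyte markers were set beside them. Of 10 such markers, 5, among them Plin1, Cfd and Lep, were listed at 0 in all 12 libraries and 9 stayed under 1 FPKM throughout. Only Cebpa passed 1 FPKM. The summed level of the 10 was 0.940 to 1.43 FPKM in BMP2+RSPO2, 2.35 to 2.65 in BMP2, 2.64 to 3.02 in RSPO2 and 2.60 to 4.35 in Control. Most of that sum was Cebpa alone, which averaged 1.07 FPKM in BMP2+RSPO2, 2.23 in BMP2, 2.70 in RSPO2 and 3.69 in Control. Pparg differed in direction at low levels, with 0.17, 0.35 and 0.16 FPKM in BMP2. It was at 0 in BMP2+RSPO2 and at most 0.05 FPKM in RSPO2 and Control. Of the 8 osteoblast markers in the table, 8 had higher mean levels in both arms with BMP2 than in both arms without it, and 6 had all libraries with BMP2 above all those without it. The 2 with overlap were Bglap2, an osteocalcin gene, at 57.9 FPKM in BMP2+RSPO2 replicate 1 against at most 68.3 FPKM in Control, and Spp1, the osteopontin gene, at 215 FPKM in that library and 380 in BMP2 replicate 1 against up to 1616 FPKM in Control. Ibsp, which encodes bone sialoprotein, was at 1972 to 2973 FPKM in BMP2+RSPO2 and 1605 to 2156 in BMP2, against 232 to 387 in RSPO2 and 457 to 793 in Control. Summed chondrocyte markers were 13.6 to 26.5 FPKM in BMP2+RSPO2 and 22.0 to 45.3 in BMP2. Their sum was 3.89 to 4.59 FPKM in RSPO2 and 7.18 to 12.7 in Control. The largest part with BMP2 was Col2a1, a collagen gene, averaging 13.2 FPKM in BMP2+RSPO2 and 27.8 in BMP2. Col2a1 averaged 1.18 FPKM in RSPO2 and 4.3 in Control. Sox9 averaged 5.09 FPKM in BMP2+RSPO2 and 7.38 in BMP2, against 2.72 in RSPO2 and 5.49 in Control. Col10a1 and Comp had higher means with BMP2, at most 3.12 FPKM, and Acan and Matn1 were at 0 in all 12 libraries. The part of either marker list in the Slc36a2 and Cdo1 changes was not tested.

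Cdo1, which oxidizes cysteine to cysteine sulfinate, the first step from cysteine to taurine, showed the second large response. Its level was 13.1, 38.2 and 33.4 FPKM in BMP2+RSPO2, 20.9, 14.1 and 13.8 FPKM in BMP2, 3.44, 2.34 and 2.16 FPKM in RSPO2, and 1.94, 2.66 and 4.45 FPKM in Control. All 6 libraries with BMP2 were above all 6 without it, while the BMP2+RSPO2 and BMP2 libraries overlapped through replicate 1 of BMP2+RSPO2. Against Control, Cdo1 rose by 2.78 ± 0.37 in BMP2+RSPO2 (adjusted p = 0.000869) and by 2.12 ± 0.37 in BMP2 (adjusted p = 0.0180), ratios of mean FPKM of 9.37 and 5.38. The BMP2 call was lost in 5 of the 12 fits that each left out 1 library, namely without any of the 3 BMP2 libraries and without Control replicate 1 or 2, with an adjusted p of up to 0.0831.

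For the addition of RSPO2 to BMP2, the Cdo1 change was 0.66 ± 0.37 over all libraries (adjusted p = 0.279). It was 1.12 without BMP2+RSPO2 replicate 1 (adjusted p = 0.0428) and 1.3 in replicates 2 and 3 alone (adjusted p = 0.00503). The interaction was 0.76 ± 0.52 over all libraries (adjusted p = 0.539) and 1.76 in replicates 2 and 3 (adjusted p = 0.0123). RSPO2 alone left Cdo1 at 2.65 ± 0.693 FPKM, against 3.02 ± 1.29 FPKM in Control (log2 change -0.11 ± 0.37, adjusted p = 1.00).

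The carriers on either side of the cysteine-to-taurine route were measured too. Slc6a6, the sodium-driven taurine carrier, was at 29.9, 27.0 and 26.9 FPKM in BMP2+RSPO2, 22.7, 29.0 and 30.5 FPKM in BMP2, 10.9, 18.5 and 15.8 FPKM in RSPO2, and 13.0, 24.6 and 19.5 FPKM in Control. The BMP2+RSPO2 libraries were all above those of RSPO2 and of Control, and overlapped those of BMP2. Slc6a6 rose by 0.88 ± 0.23 in BMP2+RSPO2 against RSPO2 (adjusted p = 0.0199), a call lost without RSPO2 replicate 1 (adjusted p = 0.0715). Against Control the change was 0.57 ± 0.23 in BMP2+RSPO2 (adjusted p = 0.0977) and 0.53 ± 0.23 in BMP2 (adjusted p = 0.467).

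Slc7a11, the light chain that imports cystine in exchange for glutamate, was at 6.86, 4.47 and 4.11 FPKM in BMP2+RSPO2, 12.2, 7.41 and 7.11 FPKM in BMP2, 13.5, 6.82 and 6.89 FPKM in RSPO2, and 12.6, 6.35 and 7.53 FPKM in Control. The first replicate was the highest in every arm, and through it the BMP2+RSPO2 libraries overlapped those of RSPO2 and of Control, while all 3 lay below those of BMP2. No comparison of Slc7a11 passed in the fit of 12 libraries without a replicate term. Without the first replicates, it was lower in BMP2+RSPO2 than in Control by 0.58 on the log2 scale (adjusted p = 0.00456), lower than in BMP2 by 0.64 (adjusted p = 0.00583) and lower than in RSPO2 by 0.57 (adjusted p = 0.00450). Csad, the enzyme that follows cysteine dioxygenase on the way to taurine, was at 5.22, 11.9 and 11.6 FPKM in BMP2+RSPO2 and 9.76, 11.9 and 12.6 FPKM in Control (log2 change -0.30, adjusted p = 0.394).

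Slc1a4 was the only carrier called lower in BMP2 against Control. It encodes ASCT1, a sodium-dependent exchanger of alanine, serine and cysteine. Its level was 11.4, 15.5 and 13.6 FPKM in BMP2+RSPO2, 14.3, 10.2 and 9.68 FPKM in BMP2, 22.4, 31.5 and 30.7 FPKM in RSPO2, and 19.8, 27.2 and 24.2 FPKM in Control. The highest of the 6 libraries with BMP2 was below the lowest of the 6 libraries without it. Slc1a4 fell by 1.00 ± 0.19 in BMP2 against Control (adjusted p = 0.0279) and by 0.77 ± 0.19 in BMP2+RSPO2 against Control (adjusted p = 0.0171). It fell by 1.00 ± 0.19 in BMP2+RSPO2 against RSPO2 (adjusted p = 0.00434), which held in all 12 fits without 1 library and in the 9 other settings tried.

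In BMP2+RSPO2 against BMP2, Slc1a4 was higher by 0.51 in replicates 2 and 3 alone (adjusted p = 0.0117) and was not called over the 12 libraries. The Slc1a4 calls against Control were less stable. That of BMP2 was lost in 6 of the 12 fits without 1 library (BMP2 replicate 2 or 3, BMP2+RSPO2 replicate 3 or any Control library), with no filter and under quantile normalization. That of BMP2+RSPO2 was lost without Control replicate 2 or 3, under quantile normalization (adjusted p = 0.115) and under median-of-ratios scaling (adjusted p = 0.102).

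The promoters of Slc1a4 and of Slc7a11 are shown because both genes belong to the group that ATF4 is known to control, and both windows hold the letters of the composite C/EBP-ATF response element, TGATGNAA on either strand. That motif is found in 3.97% of 32851 mouse promoter windows that run from 250 bases before to 50 bases after the start of transcription. Sequences are from RefSeq on GRCm38.p6 and read 5′ to 3′ along the gene, with the motif in capitals. Slc1a4 spans chr11:20332664-20332963 on the minus strand, with the motif on the opposite strand and its first letter 4 bases before the start of transcription, so that it spans that start. Slc7a11 spans chr3:50443564-50443863 on the minus strand, with the motif 66 bases before the start and again, on the opposite strand, 47 bases before it.
Slc1a4: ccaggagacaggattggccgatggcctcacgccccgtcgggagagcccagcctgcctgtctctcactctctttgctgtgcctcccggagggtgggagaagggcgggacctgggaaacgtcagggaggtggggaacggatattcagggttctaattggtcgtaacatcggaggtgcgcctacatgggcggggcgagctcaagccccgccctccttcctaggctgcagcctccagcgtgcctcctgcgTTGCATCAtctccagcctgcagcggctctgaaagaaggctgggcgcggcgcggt
Slc7a11: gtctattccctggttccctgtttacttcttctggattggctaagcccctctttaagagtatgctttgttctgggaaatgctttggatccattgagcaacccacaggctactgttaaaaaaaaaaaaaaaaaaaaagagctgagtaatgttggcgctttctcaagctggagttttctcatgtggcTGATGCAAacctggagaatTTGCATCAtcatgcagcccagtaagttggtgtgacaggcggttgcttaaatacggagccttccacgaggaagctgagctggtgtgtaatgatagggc
Promoter windows of 16 of the 23 tested members were searched, 24 windows in all. Slc36a2, Cdo1, Slc1a5, Slc6a6, Slc7a2, Slc7a5 and Slc43a3 were not searched, so nothing is known here of motifs in their promoters. Slc7a7 was the third member with this motif. The match is a description of letters, and the pair shown differed in the data: Slc1a4 was lower with BMP2 alone, whereas Slc7a11 averaged 8.92 ± 2.88 FPKM in BMP2 and 8.83 ± 3.33 FPKM in Control.

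Slc1a5, the glutamine exchanger ASCT2 of the same family, was at 17.1 ± 4.88 FPKM in BMP2+RSPO2, 14.7 ± 1.50 in BMP2, 19.1 ± 4.41 in RSPO2 and 18.4 ± 4.61 in Control, and passed in no comparison over all 12 libraries. Without the first replicates it was lower by 0.56 in BMP2 than in Control (adjusted p = 0.0112) and higher by 0.50 in BMP2+RSPO2 than in BMP2 (adjusted p = 0.00867). Slc1a3, a glutamate and aspartate carrier, was at 2.84 to 3.53 FPKM in BMP2+RSPO2, against 4.49 to 5.67 FPKM in BMP2, without overlap (log2 change -0.52 ± 0.16, adjusted p = 0.0912). Without the first replicates, that Slc1a3 change was -0.52 and passed (adjusted p = 0.00901), as did the change of -0.38 in BMP2+RSPO2 against Control (adjusted p = 0.0160).

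Slc3a2 and Slc7a5 together make the large neutral amino acid exchanger that imports leucine in exchange for glutamine. Slc7a5, the light chain LAT1, was at 29.1, 40.1 and 39.5 FPKM in BMP2+RSPO2, 24.3, 17.0 and 14.2 FPKM in BMP2, 32.7, 73.3 and 51.7 FPKM in RSPO2, and 28.9, 53.3 and 34.4 FPKM in Control. The 3 BMP2 libraries were below the 9 libraries of the other arms. The log2 change of Slc7a5 was -1.02 ± 0.31 in BMP2 against Control (adjusted p = 0.201) and 0.95 ± 0.31 in BMP2+RSPO2 against BMP2 (adjusted p = 0.102), so neither passed over all libraries. Both passed in replicates 2 and 3, at -1.41 (adjusted p = 0.0180) and 1.3 (adjusted p = 0.0122).

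The heavy chain Slc3a2 was at 62.9, 81.4 and 88.3 FPKM in BMP2+RSPO2, 58.0, 47.0 and 44.1 FPKM in BMP2, 57.2, 101 and 90.2 FPKM in RSPO2, and 56.2, 90.1 and 71.5 FPKM in Control. BMP2 and Control overlapped through their first replicates, and the log2 change was -0.52 ± 0.24 in BMP2 against Control (adjusted p = 0.511). BMP2+RSPO2 was above BMP2 without overlap, at a log2 change of 0.63 ± 0.24 (adjusted p = 0.136). Without the first replicates, Slc3a2 was lower by 0.81 in BMP2 than in Control (adjusted p = 0.0129) and higher by 0.88 in BMP2+RSPO2 than in BMP2 (adjusted p = 0.00501). The ratio of Slc7a5 to Slc3a2 FPKM was 0.448 to 0.493 in BMP2+RSPO2, 0.323 to 0.419 in BMP2, 0.571 to 0.725 in RSPO2 and 0.481 to 0.592 in Control, so the BMP2 range lay below those of the other 3 arms.

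Other light chains of the same heavy chain followed no common direction. Slc7a6, an exchanger of cationic for neutral amino acids, stayed between 18.6 and 27.0 FPKM in all 12 libraries and passed in no comparison of them. In replicates 2 and 3 alone it was higher in BMP2+RSPO2 than in RSPO2 by 0.30 (adjusted p = 0.0216). Reads of Slc7a6 and of Slc7a6os, its neighbour on the opposite strand, may be uncertain, since the use of strand in counting is not given in the sources used here. Slc7a6os was lower in BMP2+RSPO2 in replicates 2 and 3 alone, by 0.28 against Control (adjusted p = 0.0300) and by 0.27 against BMP2 (adjusted p = 0.0455), and was not called over the 12 libraries. Slc7a7, a related exchanger, was at 3.68, 1.81 and 2.04 FPKM in BMP2+RSPO2, 1.67, 0.530 and 0.490 FPKM in BMP2, 2.29, 2.24 and 2.15 FPKM in RSPO2, and 1.95, 1.31 and 1.44 FPKM in Control. The BMP2+RSPO2 libraries were above the BMP2 libraries (log2 change 0.91 ± 0.25, adjusted p = 0.0648), and the RSPO2 libraries were above the Control libraries (0.34 ± 0.25, adjusted p = 1.00). The Slc7a7 change between BMP2+RSPO2 and BMP2 passed in replicates 2 and 3 alone at 0.95 (adjusted p = 0.00213), without BMP2 replicate 1 at 1.18 (adjusted p = 0.0287) and under quantile normalization at 1.08 (adjusted p = 0.0492). In replicates 2 and 3 alone, Slc7a7 was also lower in BMP2 than in Control by 0.65 (adjusted p = 0.0143).

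**Figure D3:**
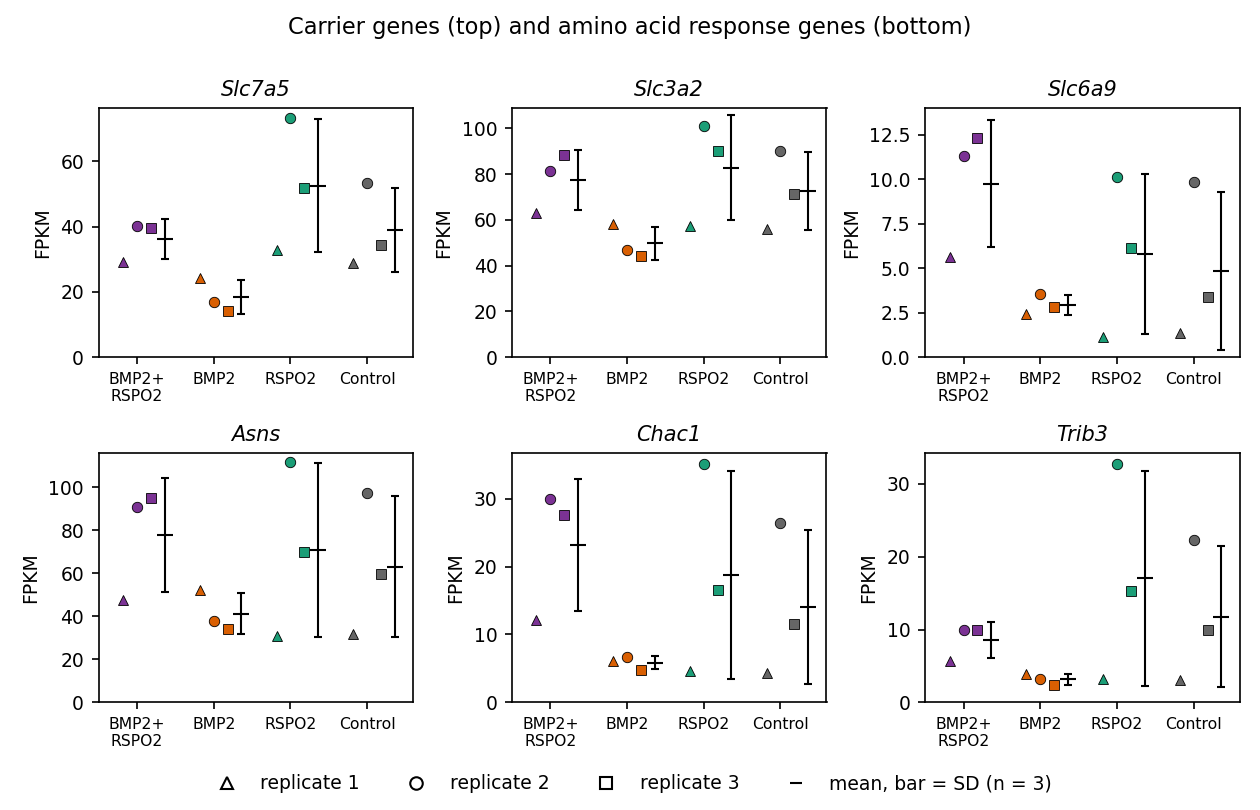
FPKM (y axes) of the carrier genes Slc7a5, Slc3a2 and Slc6a9 (top) and of the amino acid response genes Asns, Chac1 and Trib3 (bottom) in the 12 libraries, by arm, with mean and SD. In the BMP2 arm Slc7a5 lies between 14.2 and 24.3 FPKM and Chac1 between 4.76 and 6.68 FPKM, and the first replicates of RSPO2 and of Control are the lowest of their arm in all 6 panels.

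Arginine and lysine enter cells through Slc7a1 and Slc7a2, and these carriers differed in direction. Slc7a1, the widespread carrier CAT1, was at 14.8, 12.0 and 11.6 FPKM in BMP2+RSPO2, 8.26, 6.44 and 6.35 FPKM in BMP2, 7.19, 11.6 and 10.4 FPKM in RSPO2, and 6.85, 10.3 and 7.91 FPKM in Control. All 9 other libraries lay below the 3 of BMP2+RSPO2, though barely for RSPO2. Its replicate 2 was at 11.59 FPKM, against 11.6 FPKM in BMP2+RSPO2 replicate 3. Slc7a1 rose by 0.79 ± 0.19 in BMP2+RSPO2 against BMP2 (adjusted p = 0.0477), but this call was kept in only 1 of the 12 fits without 1 library, that without RSPO2 replicate 1, and was lost with no filter, with the 0.5 FPKM filter and without the variance trend. Against Control the change was 0.57 ± 0.19 (adjusted p = 0.0548), and it passed at 0.81 after median-of-ratios scaling (adjusted p = 0.0258) and at 0.80 under quantile normalization (adjusted p = 0.0309). It also passed without RSPO2 replicate 1 (adjusted p = 0.0324) or Control replicate 2 (adjusted p = 0.0411).

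Slc7a2, which encodes CAT2, a related cationic carrier known from liver and muscle, was at 2.20, 1.03 and 1.05 FPKM in BMP2+RSPO2, 3.54, 2.80 and 1.69 FPKM in BMP2, 4.09, 2.91 and 3.20 FPKM in RSPO2, and 5.25, 3.54 and 3.45 FPKM in Control. The BMP2+RSPO2 libraries were below those of RSPO2 and of Control, and overlapped those of BMP2. Slc7a2 fell by 1.08 ± 0.24 in BMP2+RSPO2 against Control (adjusted p = 0.0110), in all 12 fits without 1 library as well. It fell by 0.88 ± 0.24 against RSPO2 (adjusted p = 0.0238), a call lost without RSPO2 replicate 1 or BMP2+RSPO2 replicate 2 or 3, with no filter and under both other scalings. In BMP2 against Control the change was -0.48 ± 0.24 (adjusted p = 0.590). Slc7a2 was lower in BMP2+RSPO2 than in BMP2 by 0.65 in replicates 2 and 3 alone (adjusted p = 0.0340).

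The Slc38 family holds sodium-coupled carriers of glutamine and other small neutral amino acids. Slc38a10, a broadly expressed intracellular member, was at 48.1, 56.7 and 57.3 FPKM in BMP2+RSPO2, 43.7, 40.4 and 41.7 FPKM in BMP2, 37.9, 37.1 and 40.2 FPKM in RSPO2, and 35.8, 40.1 and 41.8 FPKM in Control. The 9 other libraries lay below those of BMP2+RSPO2. Slc38a10 rose by 0.45 ± 0.10 in BMP2+RSPO2 against Control (adjusted p = 0.0116) and by 0.48 ± 0.10 against RSPO2 (adjusted p = 0.00775), and both calls held in all 12 fits without 1 library. Against BMP2 the change was 0.35 ± 0.10 (adjusted p = 0.0730), and it passed at 0.46 in replicates 2 and 3 (adjusted p = 0.00560) and at 0.43 without BMP2+RSPO2 replicate 1 (adjusted p = 0.0265). It also passed at 0.54 after median-of-ratios scaling (adjusted p = 0.0338) and at 0.57 under quantile normalization (adjusted p = 0.0261). The ratio of mean FPKM was 1.38 for BMP2+RSPO2 over Control.

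Slc38a2, the carrier SNAT2 that imports alanine and glutamine, was at 67.8, 78.8 and 73.8 FPKM in BMP2+RSPO2, 67.3, 70.2 and 72.0 FPKM in BMP2, 54.0, 61.8 and 50.5 FPKM in RSPO2, and 57.6, 62.7 and 56.3 FPKM in Control. All 6 libraries with BMP2 were above all 6 without it. Slc38a2 rose by 0.40 ± 0.10 in BMP2+RSPO2 against RSPO2 (adjusted p = 0.0185), a call lost without RSPO2 replicate 1 or 3 or BMP2+RSPO2 replicate 2. Against Control the change was 0.31 ± 0.10 in BMP2+RSPO2 (adjusted p = 0.0532) and 0.24 ± 0.10 in BMP2 (adjusted p = 0.457), and the first of these passed at 0.57 after median-of-ratios scaling (adjusted p = 0.00664) and at 0.67 under quantile normalization (adjusted p = 0.00351). It passed as well without BMP2+RSPO2 replicate 1, at 0.37 (adjusted p = 0.0268), and in replicates 2 and 3 alone, at 0.35 (adjusted p = 0.0439). Slc38a7 and Slc38a9, both known from lysosomes, and Slc38a6 passed in no comparison of the 12 libraries.

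The Slc6 family contains carriers of transmitters and of glycine. Slc6a4, the serotonin carrier, was at 1.24, 2.47 and 2.44 FPKM in BMP2+RSPO2, 1.04, 0.210 and 0.210 FPKM in BMP2, 0.0300, 0.0700 and 0 FPKM in RSPO2, and 0, 0.390 and 0.270 FPKM in Control. It reached 1 FPKM in 4 libraries, and 3 of them were the BMP2+RSPO2 libraries, which were above the 9 others. Slc6a4 thus passed the filter through the arm in which it was then tested as higher, so its calls are not independent of the filter. Slc6a4 rose by 1.31 ± 0.25 in BMP2+RSPO2 against Control (adjusted p = 0.00553), by 1.53 ± 0.25 against RSPO2 (adjusted p = 0.00195) and by 1.05 ± 0.25 against BMP2 (adjusted p = 0.0442). The call against BMP2 was kept in only 2 of the 12 fits without 1 library and was lost with no filter and with a pseudocount of 0.1 or 0.5. Without the first replicates Slc6a4 did not pass the filter and was not tested.

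The promoter of Slc6a4 is shown because this gene was called in each comparison of BMP2+RSPO2 with another arm, though it entered the test through that arm. The window holds GGCGCC, a GC-rich palindrome that SMAD proteins can bind, which is the same on both strands and is found in 11.9% of the 32851 promoter windows. Slc6a4 spans chr11:76998347-76998646 on the plus strand of GRCm38.p6, and the motif, in capitals, starts 11 bases before the start.
Slc6a4: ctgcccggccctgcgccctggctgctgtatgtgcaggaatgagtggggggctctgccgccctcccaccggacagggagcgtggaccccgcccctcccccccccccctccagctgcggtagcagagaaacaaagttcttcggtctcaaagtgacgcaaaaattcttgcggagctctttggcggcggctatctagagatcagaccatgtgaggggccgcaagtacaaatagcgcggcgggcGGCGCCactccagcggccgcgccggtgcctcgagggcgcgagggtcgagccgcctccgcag
The same letters were found in the windows of Slc7a1, Slc36a4 and Slc38a2. CTTTGAT on either strand, the letters of a TCF/LEF site, was found in those of Slc7a1, Slc38a10 and Slc38a9 and in 3.73% of all windows. GTCTAGAC, another palindrome of SMAD sites, was searched too and was found in 0 of the 16 members and in 0.213% of all windows. CACGTG, the E-box, was found in 1 member, Slc38a7, and in 7.15% of all windows. These counts describe letters only.

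Slc6a9, the glycine carrier GlyT1, was at 5.65, 11.3 and 12.3 FPKM in BMP2+RSPO2, 2.41, 3.52 and 2.83 FPKM in BMP2, 1.12, 10.1 and 6.12 FPKM in RSPO2, and 1.33, 9.81 and 3.36 FPKM in Control. The first replicate was the lowest in every arm. The BMP2+RSPO2 libraries were above the BMP2 libraries, at a log2 change of 1.40 ± 0.63 that did not pass (adjusted p = 0.196), and in replicates 2 and 3 it passed at 1.62 (adjusted p = 0.0362). Slc6a13, a carrier of GABA that also takes taurine, was low, at 0.610, 0.150 and 0.130 FPKM in RSPO2 and 0.290, 0 and 0 FPKM in Control, and was listed at 0 in all 6 libraries with BMP2.

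Slc43a3 belongs to the family of the leucine carriers LAT3 and LAT4 by sequence and is itself known as a carrier of purine nucleobases. It was at 5.45, 3.08 and 3.14 FPKM in BMP2+RSPO2, 7.61, 6.96 and 6.51 FPKM in BMP2, 7.56, 5.23 and 4.66 FPKM in RSPO2, and 8.60, 5.59 and 5.64 FPKM in Control. Each BMP2+RSPO2 library was below all those of BMP2 and of Control. The log2 change was -0.65 ± 0.22 against Control (adjusted p = 0.0597) and -0.75 ± 0.22 against BMP2 (adjusted p = 0.0799), and both passed in replicates 2 and 3, at -0.69 (adjusted p = 0.00155) and -0.91 (adjusted p = 0.00125). Against RSPO2, Slc43a3 was lower by 0.53 there (adjusted p = 0.00355). Without BMP2+RSPO2 replicate 1 it was called lower against Control (-0.87, adjusted p = 0.0146), BMP2 (-0.96, adjusted p = 0.0287) and RSPO2 (-0.71, adjusted p = 0.0310), and against Control also without RSPO2 replicate 1 (adjusted p = 0.0475). Its relative Slc43a2, which encodes LAT4, was at 2.42, 2.45 and 0.770 FPKM in BMP2+RSPO2, 0.340 to 0.560 FPKM in BMP2, 0.230 to 0.540 FPKM in RSPO2 and 0.330 to 0.560 FPKM in Control. It missed the 1 FPKM filter. With the filter at 0.5 FPKM in 3 libraries, Slc43a2 was called higher in BMP2+RSPO2 against Control (0.94, adjusted p = 0.0191) and against RSPO2 (1.02, adjusted p = 0.0113), and both calls were also made with no filter.

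**Figure D4:**
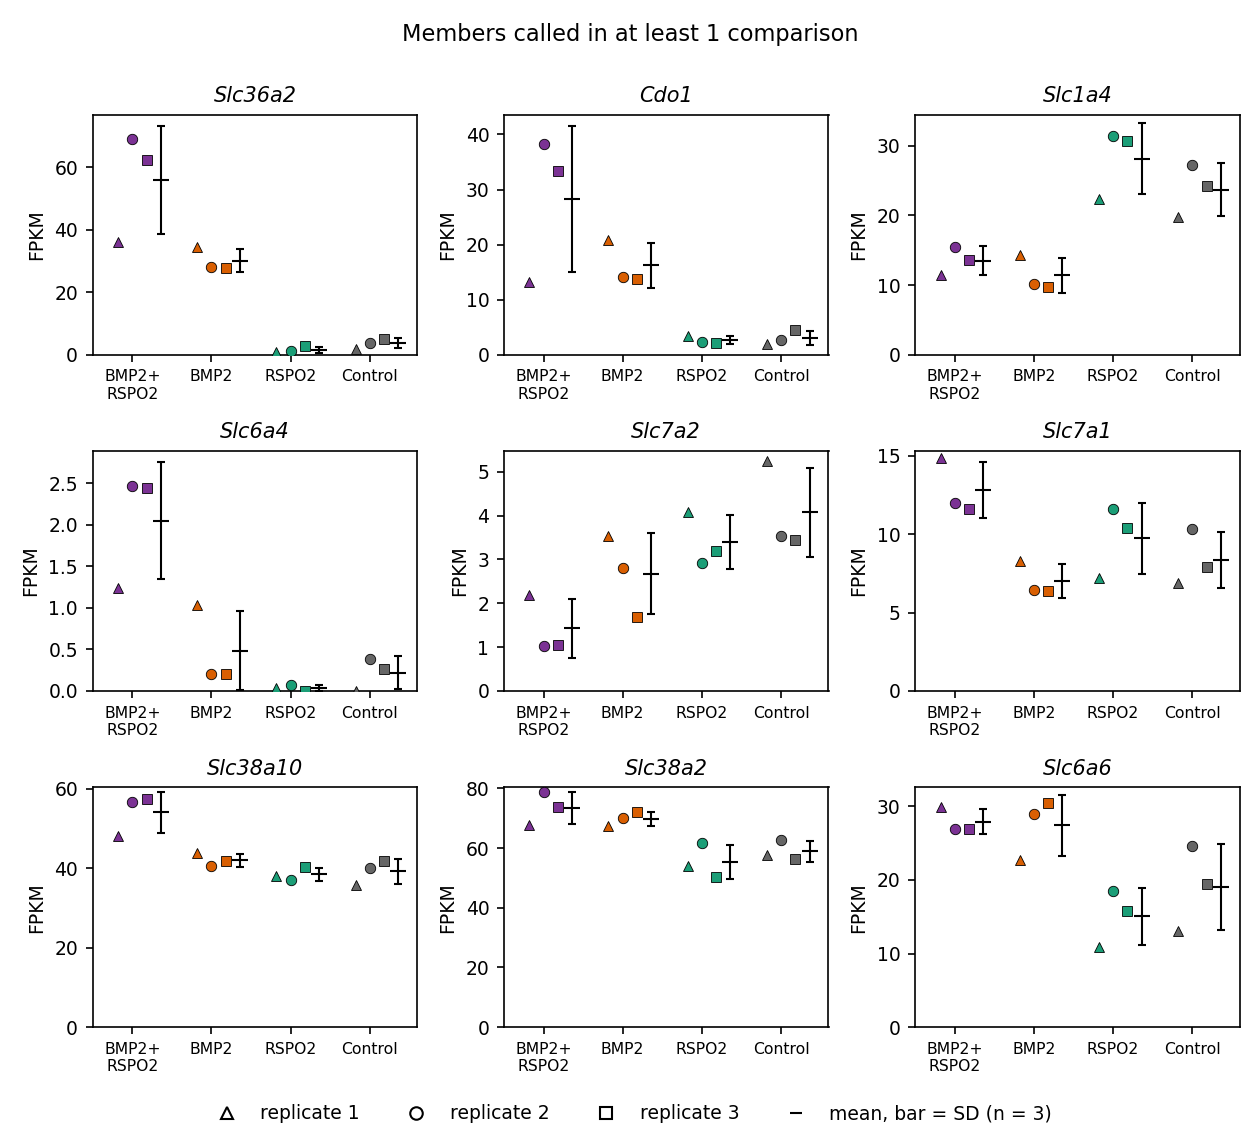
FPKM (y axes, from 0) of the 9 members called in at least 1 comparison, by arm, with 1 symbol per replicate and the mean and SD of each arm. Slc36a2 and Cdo1 are high in the BMP2+RSPO2 and BMP2 arms, at 27.8 to 69.0 and 13.1 to 38.2 FPKM, and at most 5.18 and 4.45 FPKM in RSPO2 and Control.

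The first replicates bear on several of these values. Among the 21 tested carriers, Slc7a11, Slc7a2, Slc7a7 and Slc43a3 were highest in the first replicate of all 4 arms, against 14.8% of all genes tested, and Slc6a9 was lowest in all 4, against 10.4%. Slc7a5, Slc3a2, Slc1a4, Slc1a5, Slc36a2 and Slc38a7 were lowest in the first replicate of BMP2+RSPO2, RSPO2 and Control and highest in that of BMP2. The share of all genes with this mixed pattern was not counted, so neither it nor the patterns above are read as a trait of the carriers. Without the first replicates, 22 members were tested in 8 libraries with 4 residual degrees of freedom. Adding RSPO2 to BMP2 then called 15 of them, 10 higher and 5 lower, beside a background of 22.5%. BMP2+RSPO2 against Control called 10, 4 higher and 6 lower, beside 35.8%, and BMP2+RSPO2 against RSPO2 called 10 beside 38.3%. BMP2 against Control called 7, 2 higher and 5 lower, beside 8.64%, where Slc1a5, Slc3a2, Slc7a5 and Slc7a7 joined Slc1a4 among the lower ones. The interaction called 5 beside 9.89%: Slc36a2, Cdo1 and Slc38a10 (0.54, adjusted p = 0.0191) were positive, and Slc43a3 (-0.76, adjusted p = 0.0142) and Slc7a11 (-0.63, adjusted p = 0.0336) negative. The part that the proliferation markers or the RNA composition of these libraries had in the difference between the fits was not tested.

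**Figure D5:**
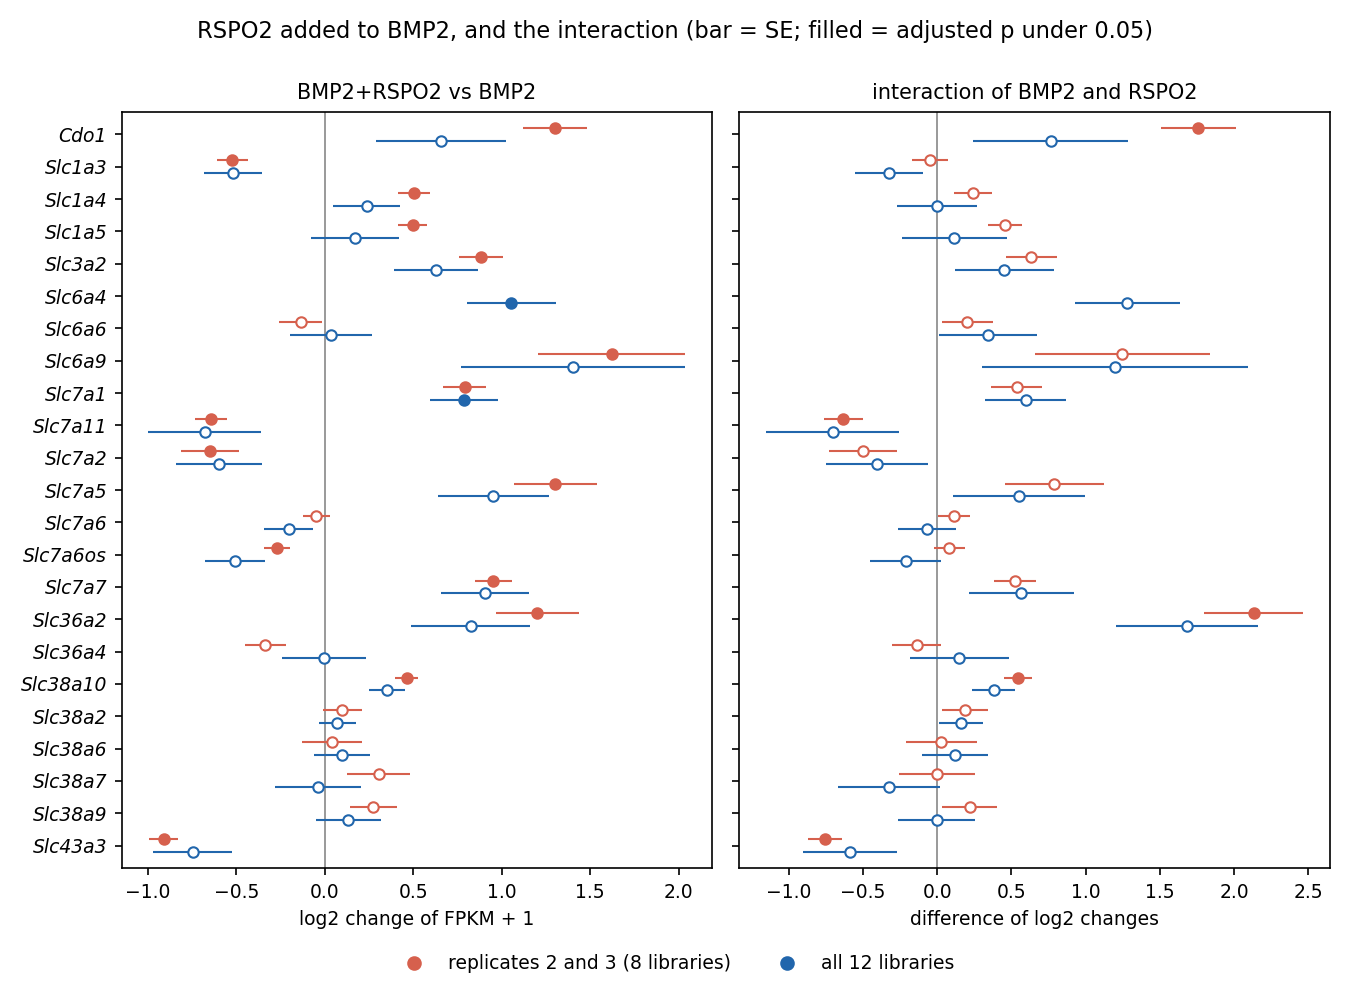
Log2 change of FPKM + 1 in BMP2+RSPO2 against BMP2 (left) and the interaction of BMP2 and RSPO2 (right) for each tested member, from replicates 2 and 3 (red) and from all 12 libraries (blue), with SE bars and filled points at adjusted p under 0.05. On the left 2 blue and 15 red points are filled, and on the right 0 blue and 5 red, with Slc36a2 and Cdo1 farthest to the right among the red ones.

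Genes of amino acid metabolism outside the carriers were described by 8 lists that hold 93 tested genes. In BMP2+RSPO2 against Control, 0 of the 93 were called higher in limma and 27 lower, beside the backgrounds of 3.65% and 19.4%. After median-of-ratios scaling 3 were called higher and 17 lower, beside backgrounds of 6.62% and 7.57%. The counts by list that follow stand beside the same 19.4% called lower. Those of 2 of 9, 2 of 7 and 4 of 15 genes lie near it and are not read as a trait of their lists. Of 12 tested genes of branched-chain amino acid breakdown, 5 fell, with a list median of -0.61 against -0.26 over all genes. Mccc2, a subunit of the carboxylase on the leucine route, fell by 1.06 (adjusted p = 0.000705) and Dbt, the transacylase core of the branched-chain dehydrogenase, by 0.80 (adjusted p = 0.00310). Of 7 tested arginine and polyamine genes, 2 fell: Ass1 by 1.43 (adjusted p = 0.0124) and Asl by 1.29 (adjusted p = 0.00537), the consecutive enzymes that make arginine from citrulline. Of 9 tested glutamine, glutamate and aspartate enzymes, 2 fell. Glul, glutamine synthetase, was at 4.06, 4.62 and 4.60 FPKM in BMP2+RSPO2, 7.75, 10.0 and 9.92 FPKM in BMP2, 11.5, 9.10 and 8.82 FPKM in RSPO2, and 11.6, 9.47 and 9.52 FPKM in Control. It fell by 1.04 in BMP2+RSPO2 against Control (adjusted p = 0.000869) and by 0.91 against BMP2 (adjusted p = 0.0101), and it was called lower against Control under both other scalings as well. Got2, the mitochondrial aspartate aminotransferase, fell by 0.68 (adjusted p = 0.0132).

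Of 14 tested serine, glycine and proline enzymes, 5 fell in BMP2+RSPO2 against Control, among them Pycrl, a reductase that makes proline, by 1.06 (adjusted p = 0.000610), and Oat, ornithine aminotransferase, by 0.77 (adjusted p = 0.0132). Of the 14, 4 had a positive log2 change, and after median-of-ratios scaling 1 was called higher and 4 lower. Pycr1, another reductase that makes proline, was at 31.5 ± 17.6 FPKM in BMP2+RSPO2 and 26.5 ± 10.1 FPKM in Control, with overlap. Of 15 tested genes of cysteine, taurine and glutathione metabolism, 4 fell, including Ethe1, a persulfide dioxygenase, by 1.12 (adjusted p = 0.0141). After median-of-ratios scaling, 1 of these 15 was called lower, beside a background of 7.57%. Of 15 tested genes of amino acid sensing, 6 fell, and 2 after that scaling, beside the same 7.57%. Sesn3, a sestrin, was at 3.10, 3.97 and 3.52 FPKM in BMP2+RSPO2, 3.84, 9.20 and 8.30 FPKM in BMP2, 15.0, 18.2 and 21.4 FPKM in RSPO2, and 13.9, 19.4 and 18.7 FPKM in Control. All libraries with BMP2 were below all those without it, and Sesn3 fell by 2.01 in BMP2+RSPO2 (adjusted p = 0.000769) and by 1.23 in BMP2 (adjusted p = 0.0461), each against Control. The leucine sensor Sesn1 fell by 1.71 in BMP2+RSPO2 against Control (adjusted p = 0.000408). Of 9 tested carriers of other families, 2 fell, the mitochondrial carriers Slc25a12 by 0.66 (adjusted p = 0.00737) and Slc25a38 by 0.83 (adjusted p = 0.0269).

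The list of the amino acid starvation response holds ATF4, its partners and genes it induces. All 12 of its genes had a negative log2 change in BMP2 against Control, where 35.7% of all genes had a positive one. Their median was -0.37 beside -0.06 over all genes, and limma called 0 of them, with 2 at an unadjusted p under 0.05. In replicates 2 and 3 the median was -0.74, beside -0.07 over all genes, and 6 were called lower, beside a background of 4.77% called lower. In BMP2+RSPO2 against BMP2, 9 of the 12 had a positive log2 change, against 28.7% of all genes. The median there was 0.40 beside -0.19 over all genes, and 1 was called higher, beside 0.641%. In replicates 2 and 3 that comparison called 6 higher and 1 lower, beside 5.49% and 17%. Asns, asparagine synthetase and a known ATF4 target from the glutamine and asparagine list, was at 47.3, 90.9 and 94.8 FPKM in BMP2+RSPO2, 52.0, 37.6 and 34.0 FPKM in BMP2, 30.9, 112 and 69.8 FPKM in RSPO2, and 31.9, 97.4 and 59.7 FPKM in Control. Replicates 2 and 3 of BMP2 lay below all other libraries except the first replicates of RSPO2 and Control, and no comparison of Asns passed. Chac1, a glutathione-degrading enzyme from the cysteine and glutathione list, was at 12.1, 29.9 and 27.7 FPKM in BMP2+RSPO2, against 6.11, 6.68 and 4.76 FPKM in BMP2 (log2 change 1.73, adjusted p = 0.154). Ddit4, an inhibitor of mTORC1 signalling, fell by 1.60 in BMP2+RSPO2 against Control (adjusted p = 0.00623), and Vldlr, a lipoprotein receptor, rose by 0.89 in BMP2+RSPO2 against BMP2 (adjusted p = 0.0319).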

How the data were processed

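The authors deposited 1 FPKM value per gene and library, with 2 decimals, for 12 poly(A) libraries, and no counts, so depth is unknown and no interval from counting can be given. Per the submitters' processing notes, cutadapt 1.10, FastQC 0.10.1, HISAT2 2.0, StringTie 1.3.4 and edgeR were used, and the builds GRCm38 and mm10 are named without roles. The gene identifiers are those of the C57BL/6NJ annotation, so symbols, not coordinates, were used. The authors also deposited a p-value and a q-value per gene without naming the groups compared, and these were not used.

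FPKM were transformed as log2(FPKM + 1), with a pseudocount of 1. The 11548 genes that reached 1 FPKM in 3 or more libraries entered 1 limma 3.58.1 fit (R 4.3.3) of the 4 arms with a trended variance prior, 8 residual and 2.5 prior degrees of freedom. The script was tested on simulated data with independent noise in each library. Those data held neither the pattern of the first replicates nor the RNA composition of BMP2+RSPO2 replicate 1. Tests were two-sided, with Benjamini-Hochberg adjustment over all genes tested in each of 6 comparisons, and all adjusted p-values come from limma.

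Members named were those called, a panel of 10 carriers, the 5 most abundant, and the smallest p of each family in the BMP2 and RSPO2 comparisons with Control. From each other list, up to 4 called genes could be named. Slc1a3, Slc6a13, Slc38a4, Slc38a6, Slc38a9, Slc43a1, Slc43a2, Ibsp, Bglap2, Spp1, Pparg, Col2a1, Sox9, Acan, Matn1, Pycr1, Slc7a6os, Chac1, Trib3 and the carriers named at 0 were chosen after their values were seen. So were Col10a1 and Comp. The members and lists were chosen with earlier results of these data known.

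Alternatives were other pseudocounts, filters and scalings, a replicate block, no variance trend, each library left out and replicates 2 and 3 alone.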

Additional observations from a re-analysis of the deposited data

How the results depend on the processing

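No named log2 change that was called in 1 direction was called in the other under any of the alternatives run. The number of members called in BMP2+RSPO2 against BMP2, 2 as reported, was 0 with no filter, 1 with the 0.5 FPKM filter, 1 with either other pseudocount, 1 without the variance trend and 4 under quantile normalization. Leaving out 1 library gave 0 to 4 for that comparison, 1 to 3 for BMP2 against Control (3 as reported), 5 to 9 for BMP2+RSPO2 against Control (6 as reported) and 5 to 9 for BMP2+RSPO2 against RSPO2 (8 as reported). The 5 in the last came without RSPO2 replicate 1. The background moved with the setting as well. For BMP2+RSPO2 against BMP2 it was 4.38% as reported, 2.26% under quantile normalization and 6.21% without BMP2+RSPO2 replicate 1. For BMP2 against Control it was 1.52% as reported and 3.51% without that library. These member counts are therefore not read as changes of the members alone. Replicates 2 and 3 alone gave 7 for BMP2 against Control, 10 for BMP2+RSPO2 against Control, 15 for BMP2+RSPO2 against BMP2 and 5 for the interaction, where the fit of 12 libraries gave 0; backgrounds over all genes were then 8.64%, 35.8%, 22.5% and 9.89%, and the cause was not tested. RSPO2 against Control gave 0 members called under every alternative run. Libraries of equal replicate number correlated in their deviations from the arm means at -0.12 to 0.63, with 16 of 18 pairs over 0.1, and 9 of the 12 libraries correlated best with their own number. This is a hint of pairing from the data and not from the design: the labels name nothing that equal numbers share, and 2 of the 18 pairs did not exceed 0.1, so the block was kept as an alternative. With the replicate number as a block, 11 members were called in BMP2+RSPO2 against Control and 8 in BMP2+RSPO2 against BMP2. Over all genes, the block gave 3897 calls against 2656 in the first of these and 1710 against 506 in the second. Under the block, Slc7a11 was called lower in BMP2+RSPO2 against Control (-0.65, adjusted p = 0.00240), BMP2 (-0.68, adjusted p = 0.00914) and RSPO2 (-0.68, adjusted p = 0.00167), and Slc43a3 against Control (-0.65, adjusted p = 0.00449), BMP2 (-0.75, adjusted p = 0.0100) and RSPO2 (-0.49, adjusted p = 0.0124). The other added calls of the block were Slc6a6, Slc38a2 and Slc7a6os against Control, and Slc7a2, Slc7a7, Slc6a9 and Slc38a10 against BMP2. Depth, which is unknown, limits what can be said of genes listed at 0.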
